A study of Mus musculus with 7 samples.

Results

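Mgea5 and Ogt encode the enzymes that remove and add O-linked N-acetylglucosamine (O-GlcNAc). Their RNA is described here in reads from a study that recovered RNA with Polycomb protein Ezh2, and with controls, in mouse embryonic stem cells. No label ties the reads to a library, so they cannot be called RNA that came down with Ezh2. These 2 genes, of 55536 annotated and 23310 nuclear genes with a sense read, were chosen by name with their read counts and read positions already known, so all values below are descriptions and none carries a test. Mgea5 is named Oga in later releases. It was represented by 74869 sense reads, nearly all of them on a short stretch of coding sequence in exons 7 to 9. Ogt was represented by 2225 sense reads, and more than 50% of them lay in intron 4, which annotated noncoding isoforms retain. Of distinct Ogt sequences, 41.9% matched noncoding isoforms alone, so this majority depends on what is counted.

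In RNA immunoprecipitation sequencing (RIP-seq) a protein is pulled out of nuclear lysate with an antibody, and cDNA made from the accompanying RNA is sequenced. The labels describe 7 libraries of embryonic stem cells grown with LIF, a cytokine that keeps such cells undifferentiated, and name no treatment. An anti-Ezh2 antibody was used in 1 library of Ezh2-null cells of strain M.musculus and in 5 libraries of cells of strain 129X(M.castaneusX129), which include 1 technical and 1 biological replicate as well as 2 deeper runs, of 2 lanes each, of the first sample and of the biological replicate. Normal rabbit IgG was used in 1 library of the 129X(M.castaneusX129) cells. The values come from 1 table of read sequences and counts, which no label or header ties to a library. The name of the table has parts that may stand for wild type and biological replicate, in which case the values are those of wild-type Ezh2 RIP alone, but no label spells them out. No value below is therefore an enrichment over IgG or over Ezh2-null cells, none has replicates, and the intervals cover counting error only, since copies made by PCR are counted like separate molecules.

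O-GlcNAc is a sugar that OGT attaches to serine and threonine of nuclear and cytosolic proteins, using the donor UDP-GlcNAc, and that O-GlcNAcase, the product of Mgea5, takes off again. The hexosamine pathway makes the donor from glucose. OGT is known to bind HCF-1 and the TET proteins in embryonic stem cells, and in Drosophila the Ogt gene is the Polycomb group gene super sex combs. In mammalian cells an OGT transcript that keeps an intron is known to stay in the nucleus.

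The table held 34072479 reads, of which 31529044 were long enough to be matched to GENCODE transcripts and 36.07% of these were given to 1 gene. A count of 50 sense reads was reached by 29% of nuclear coding genes. Markers of embryonic stem cells were present, and 9 of 10 reached it. Nanog was lowest at 37, or 16834 when reads that also match other genes are included. The sum over these 10 was 36982 reads, but L1td1 alone gave 29926 of them. Fibroblast or feeder cell markers were present too, 7 of 7 reached 50, and their sum was 17394 reads. Per kb of merged exon, scaled to searched reads (RPKM), the fibroblast or feeder markers had the higher median, 13.7 against 5.17. Only 1 of 4 neural markers and 0 of 3 primitive endoderm markers reached 50, with Gata6 at 0 (up to 3 reads are compatible with a count of 0). The part of other cells in the reads of Mgea5 and Ogt was not tested.

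Mgea5 (ENSMUSG00000025220.8, chr19:45750259-45783837, minus strand, GRCm38) has 6 annotated isoforms, of which the main coding isoform has 16 exons and 5057 bases. Its highest start position lay in the coding sequence of exon 8. A start position is the reference base matched by the first read base after the leading 6, which were left out of matching. Reads of messenger RNA run antisense to it, so a read that starts at a base covers the RNA upstream of that base, and its leading 6 bases lie just downstream. The end of exon 7 and the whole of exon 8 are printed because they carry most of the Mgea5 reads, in RNA sense, 5′ to 3′. Capitals mark the 34 bases matched by a 40-base read that starts at the highest position.
Mgea5 exon 7, last 60 bases (chr19:45771682-45771741, minus strand, GRCm38): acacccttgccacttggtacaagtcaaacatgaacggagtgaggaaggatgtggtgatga
Mgea5 exon 8 (chr19:45770051-45770209, minus strand, GRCm38): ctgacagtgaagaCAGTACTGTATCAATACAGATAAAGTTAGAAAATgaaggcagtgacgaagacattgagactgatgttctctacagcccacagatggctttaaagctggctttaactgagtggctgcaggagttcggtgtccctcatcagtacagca

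The 74869 sense reads of Mgea5 (Poisson 95% interval 74333.7 to 75407.2) were 5393 distinct sequences at 318 start positions. That placed Mgea5 as rank 7 of the nuclear genes by sense reads and as rank 15 by sense reads per kb of merged exon, scaled to the number of searched reads as in RPKM, at 276 RPKM. The base at chr19:45770163, base 47 of the 159 of exon 8, held 36214 reads, or 48.4% of the gene (exact Clopper-Pearson 95% interval 48.0 to 48.7), and 2 positions held the upper 50% of its reads. The next positions were its close neighbours, with 5161 reads at 45770162, 3712 at 45770164 and 3344 at 45770161, and then 3200 at 45770176. Within 5 bases on either side of the highest position lay 72.5% of the reads (72.2 to 72.8), at 10 positions, and within 20 bases 80.3% (80.0 to 80.6). The high count of Mgea5 thus stood mainly for a short region of exon 8. Among nuclear genes with at least 1000 sense reads, the highest position held at least 25% of the reads in 171 of 688 genes (24.9%), with a median of 15.8%, and Mgea5 ranked 33 of 688 by this share. The choice of Mgea5 used this value, so the rank is a description.

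**Figure D1:**
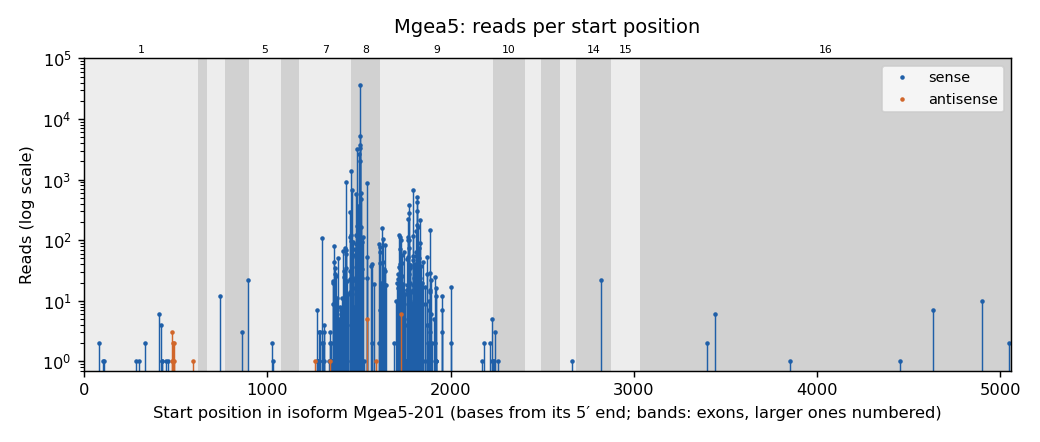
Reads (log scale) at each start position along the main coding isoform of Mgea5, in bases from its 5′ end, for sense and antisense reads, with exons as grey bands. The 50 positions with at least 100 sense reads lie between bases 1296 and 1886 of 5057, in exons 7 to 9.

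By exon, exon 8 held 63218 sense reads, 84.4% of the total, exon 9 held 7601 (10.2%) and exon 7 held 3926 (5.24%). Together exons 7 to 9 took 99.83% of the reads (99.8 to 99.86), at 286 start positions, while they make up 20.9% of the length of the main isoform. The remaining 124 reads started at 32 positions, and 8 of the other 13 exons, which span 3999 bases, had a read. Exons 2, 6, 11, 12 and 15 had 0 sense reads (a limit of 3 for each), and no position outside exons 7 to 9 had more than 22. Coding sequence took 99.93% of the reads, the 3′ UTR 29 reads and the 5′ UTR 18. All 5024 windows of 34 bases in the main isoform match this gene alone among the transcripts when no mismatch is allowed.

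Spliced reads were found at 3 junctions of Mgea5. Counting reads with at least 4 matched bases on each side of a junction, 2168 joined exon 7 to exon 8, at 19 start positions, 529 joined exon 8 to exon 9, at 12, and 4 joined exon 9 to exon 10. The other 12 of the 15 junctions of the main isoform had 0. Unspliced reads across the junctions of exons 7 to 10 match no annotated transcript and could not be counted, so no share of spliced RNA is given. In the 1569 bases of intron 3 that one such isoform keeps, 1 sense read started, and in the 858 bases of intron 12 that another keeps, 0 did, while 18812 reads matched the kept part of intron 12 and other genes equally well and were given to none. Among reads given to Mgea5, those that match noncoding isoforms alone were 1 of 74869 (0.001336%, interval 3.382e-05 to 0.007442). Most reads, 94.02%, also match the isoform with intron 3, and all but 1 of them do so in exons it shares with a coding isoform. Introns that no annotated isoform keeps were not searched.

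Matching allowed at most 2 mismatches in a read and left out its leading 6 bases, which partly sets the following contrast. Reads at the highest position of Mgea5 differed in their leading 6 bases far more often than in the rest. The 5 sequences with most reads there are printed as read, 5′ to 3′, with the leading 6 bases in capitals, because they differ from each other in that part alone.
Mgea5 read 1: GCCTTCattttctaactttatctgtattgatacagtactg
Mgea5 read 2: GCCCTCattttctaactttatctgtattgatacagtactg
Mgea5 read 3: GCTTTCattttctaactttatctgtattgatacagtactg
Mgea5 read 4: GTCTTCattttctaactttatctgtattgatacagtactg
Mgea5 read 5: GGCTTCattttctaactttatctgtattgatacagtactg

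These had 13479, 1246, 1109, 934 and 854 reads in that order. The 36214 reads of the position carried 368 different leading 6-base sequences, 194 of them with at least 10 reads. In 14741 reads, 40.7% (40.2 to 41.2), the leading bases were those of the RNA just downstream, in 8065 (22.3%) they differed at 1 base, in 8532 at 2, and in 13.5% at 3 or more. At the position 13 bases upstream in the RNA, 45770176, 67.8% of 3200 reads matched the RNA in all of the leading bases and 0.0625% differed at 3 or more. At the neighbour 45770165, 0 of 2624 matched in full and 69.2% differed at 3 or more. In the matched part, 94.6% of all Mgea5 sense reads had no mismatch and 0.630% had 2.

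**Figure D2:**
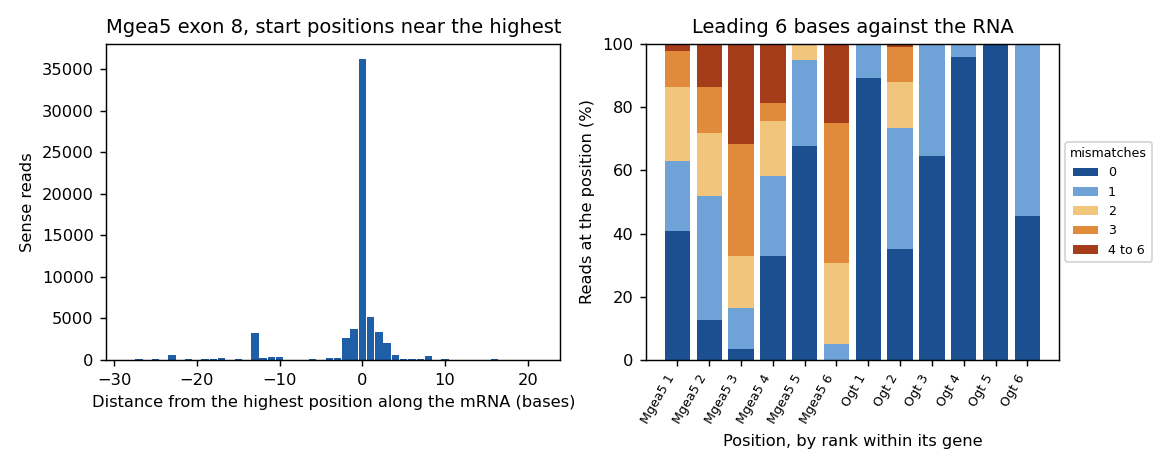
Left, sense reads at start positions within 30 bases of the highest position of Mgea5, by distance along the mRNA. Right, for the 6 highest positions of Mgea5 and of Ogt, the percentage of reads whose leading 6 bases differ from the RNA at 0, 1, 2, 3 or 4 to 6 bases. The highest Mgea5 position has 36214 reads and a mixture of all classes, and the Ogt positions in intron 4 (ranks 1, 3, 4, 5 and 6) have 0 or 1 mismatch.

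Antisense reads were few in Mgea5 beside its sense reads. There were 52, at 16 positions, or 0.0694% of the reads of both strands (0.0518 to 0.0910), against 13.7% over all nuclear genes. The low share rests on the many sense reads in exons 7 to 9, since only 124 sense reads started elsewhere. Counted by start positions, the antisense share was 4.79%, against 25.17% over nuclear genes. An antisense share with its whole interval over 50% was found in 1416 of the 8954 nuclear genes that had 50 reads or more (15.8%), and neither Mgea5 nor Ogt was among them. Of the 52, 17 started at 1 position of intron 10 within an exon of a shorter coding isoform, 9 in the retained part of intron 3, 12 in exon 1, 2 in exon 7, 6 in exon 8 and 6 in exon 9. In exon 8, 5 of them started at 45770122, next to a sense position with 865 reads.

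The table pools reads of 36 and of 40 bases with some of other lengths, and Mgea5 was read mostly at 40. It had 3146 sense reads of 36 bases and 71467 of 40 bases. Among reads of these lengths, 36-base reads were 4.22%, against 11.45% over nuclear genes. The Mgea5 ratio of 40-base to 36-base reads was 2.94 times that of all nuclear sense reads. A ratio more than 2-fold from that of all nuclear reads was found in 246 of 688 genes with at least 1000 sense reads (35.8%), so Mgea5 did not stand apart in this. The highest position was the same at both lengths, with 51.4% of 36-base reads and 48.4% of 40-base reads.

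Ogt (ENSMUSG00000034160.13, chrX:101640060-101684351, plus strand, GRCm38) has 7 annotated isoforms, among them the main coding isoform of 22 exons and 5384 bases and 3 isoforms that keep the beginning of intron 4. Its highest start position lay in that intron and its next highest in the 3′ UTR. The stretch around the highest position is printed in RNA sense, 5′ to 3′, because it is where the intron reads gather, with capitals for the 34 bases matched by a 40-base read that starts at the highest position. The 2 commonest reads of that position follow, with their leading 6 bases in capitals.
Ogt intron 4 (chrX:101652668-101652817, plus strand, GRCm38): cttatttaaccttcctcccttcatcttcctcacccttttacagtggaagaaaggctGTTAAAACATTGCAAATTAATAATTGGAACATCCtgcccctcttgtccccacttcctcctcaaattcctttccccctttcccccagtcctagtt
Ogt read 1, with 208 reads: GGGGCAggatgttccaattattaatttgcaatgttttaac
Ogt read 2, with 24 reads: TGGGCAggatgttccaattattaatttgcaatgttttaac

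The 2225 sense reads of Ogt (Poisson interval 2133.5 to 2319.4) were 484 distinct sequences at 160 start positions. They gave 8.77 RPKM, rank 501 among nuclear genes, and rank 305 by sense reads. Per kb of exon, Mgea5 was therefore 31.5 times Ogt, while it had 1.99 times as many start positions. The highest position of Ogt, chrX:101652757, held 252 reads, 11.3% of the gene (10.04 to 12.72), and 10 positions held the upper 50%. By share at the highest position the reads of Ogt were thus less concentrated than those of Mgea5, and Ogt ranked 481 of 688. The genes differ in depth, and the effect of depth on the number of start positions was not tested.

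Intron 4 held 1266 of the sense reads, 56.9% of the gene (54.81 to 58.97), at 70 start positions. They gathered in its beginning. The 669 bases kept by all 3 retained intron isoforms held 1213 reads at 56 positions, or 1813 reads per kb, whereas 1692 bases further on, which the longest of these isoforms keeps, held 51 reads at 13 positions, or 30.1 per kb. The last 279 bases of the intron, kept by a processed transcript, had 0 (a limit of 3). The highest positions of the intron were 252 reads at 101652757, 133 at 101652758, 95 at 101652430, and 92 each at 101652767 and 101652801. The top position lies 549 bases into the intron of 3415 bases. The stretch of the intron that no annotated isoform keeps was not searched.

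**Figure D3:**
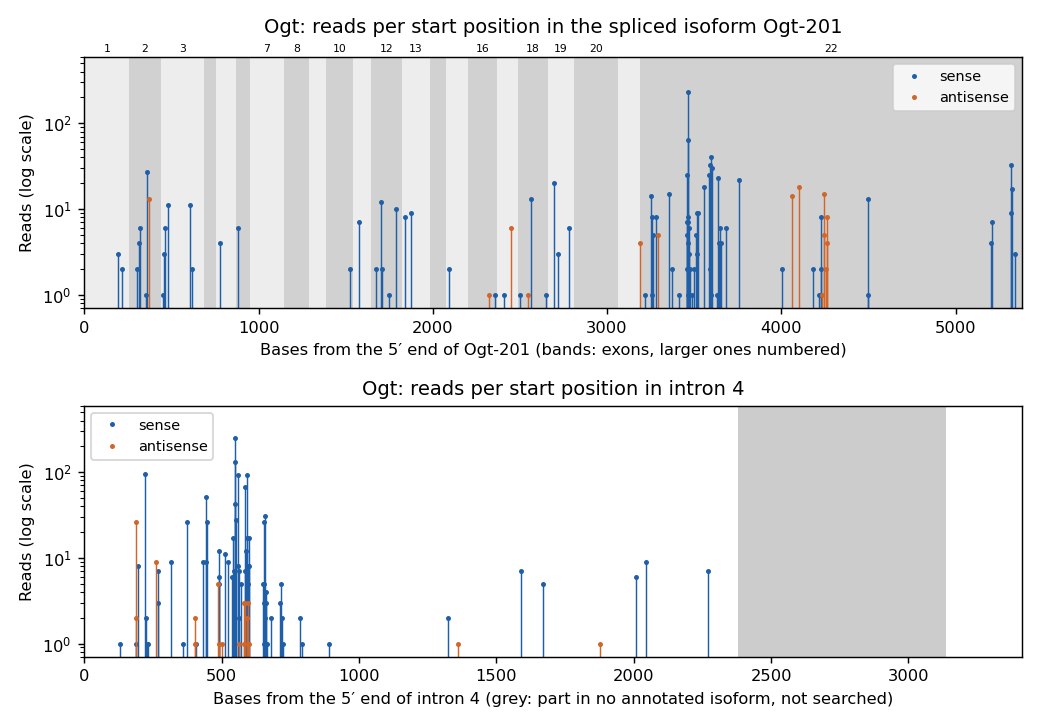
Reads (log scale) at each start position of Ogt, for sense and antisense reads, along the spliced main isoform (above) and along intron 4 (below). In intron 4, 1213 of 1266 sense reads start within the first 669 bases, and the highest position has 252.

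The ends of intron 4 were hardly read. With at least 4 bases on each side, 0 sense reads crossed the boundary from exon 4 into intron 4, 0 joined exon 4 to exon 5 by splicing, and 4 ran from intron 4 into exon 5 unspliced. Exon 4 itself had 0 sense reads (a limit of 3). The choice between a spliced and a retained intron 4 could therefore not be read from junctions at this depth. The first sense read of the intron started at 101652338, base 130 of it. Of the 2378 windows of 34 bases in the kept part, 2371 match Ogt alone among the transcripts, but the genome outside annotated transcripts was not searched.

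In all, 1270 of 2225 Ogt sense reads matched noncoding isoforms alone, 57.1% (55.0 to 59.2). Among nuclear coding genes with at least 1000 sense reads, 45 of 657 (6.85%) had at least 25% of their reads on noncoding isoforms alone, the median was 0.138%, and Ogt ranked 33 and Mgea5 400 of 657. Because Ogt was chosen with this share in view, its rank is a description. The share moved with what was counted. It was 41.9% of distinct sequences, 44.4% of start positions, 35.2% of 36-base reads (27.9 to 43.0) and 59.5% of 40-base reads. Among 36-base and 40-base reads together, those of 36 bases made up 4.61% in intron 4, 4.21% in coding sequence and 13.5% in the 3′ UTR.

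The 3′ UTR of Ogt held 717 sense reads, 32.2% of the gene (30.3 to 34.2), at 50 positions, the coding sequence 237 (10.7%) at 38 positions, and the 5′ UTR 5. Per kb of the main isoform that was 354 reads in the 3′ UTR and 75.5 in coding sequence, while the kept part of intron 4 had 532 per kb. In the 3′ UTR, 233 reads started at the highest position and 63 at its neighbour. Coding reads were thin everywhere. The highest coding position, 101643076 in exon 2, had 27 reads, and 7 of the 22 exons had 0. Spliced reads crossed 6 of 21 junctions of the main isoform, 28 reads in all, with 10 from exon 2 to exon 3 as the most. Mgea5 showed the other order, with 99.93% of its reads in coding sequence and 0.0387% in the 3′ UTR.

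The 2 leading positions of Ogt differed in their leading bases at like depth. The intron position had 4 kinds of leading 6-base sequence in 252 reads, of which 225 (89.3%, interval 84.8 to 92.8) were those of the RNA. The 3′ UTR position had 53 kinds in 233 reads, of which 82 (35.2%, 29.1 to 41.7) were those of the RNA. Over the 1031 nuclear sense positions with 200 to 300 reads, the median was 17 kinds and the quartiles were 10 and 28. As few kinds as at the intron position were found at 3.69% of them, and as many as at the 3′ UTR position at 4.95%. Counted by distinct sequences, the 3′ UTR position led Ogt, with 72 against 41 at the next.

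Antisense reads of Ogt were 163 at 33 positions, 6.83% of both strands (5.85 to 7.91), and lay mostly in intron 4 and the 3′ UTR. Of them 66 started in intron 4 at 19 positions and 67 in the 3′ UTR at 8. The highest antisense position, 101652396 in intron 4, had 26 reads and lay 34 bases before the sense position 101652430, which had 95, so that reads of the 2 strands there cover nearly the same bases. In the 3′ UTR the antisense reads led at 101683069, 101683215 and 101683027, with 18, 15 and 14 reads, away from the leading sense position. No annotated gene overlaps Ogt on the other strand.

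The highest windows of both genes were poor in G and C. The 34 bases read from the highest position had 26.5% G and C in Mgea5 and in Ogt alike, and the median over all such windows was 44.1% both in the main Mgea5 isoform and in the longest Ogt isoform that keeps intron 4. As low a share was found in 4.98% of the windows of the Mgea5 isoform and in 13.6% of those of the Ogt isoform. Purines made up 61.8% of the Mgea5 window and 55.9% of the Ogt window. The 150 bases printed above, which include the Ogt window, were rich in C and T, with 31.3% purines.

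The 3 nuclear genes nearest to Mgea5 in log2 sense reads were Hsp90ab1, a cytosolic chaperone gene, with 82778 reads, Lefty2, a Nodal antagonist gene, with 66761, and Srsf11, a splicing factor gene, with 85028. Their highest positions held 13.2%, 27.8% and 8.40% of the reads, against 48.4% in Mgea5, and their antisense shares were 2.61%, 0.236% and 0.346%. The 3 nearest to Ogt were Alkbh5, an RNA demethylase gene, with 2223 sense reads, Nfat5, a transcription factor gene of the osmotic response, with 2221, and Ect2, a cell division gene, with 2217. Their highest positions held 25.6%, 31.7% and 30.4%, against 11.3% in Ogt, and 0, 75 and 2 of their reads lay on noncoding isoforms alone, against 1270 in Ogt. These genes are nearest in read count only, and others were closer in shape: Baz2a, a chromatin remodelling gene chosen after its values were seen, had 59034 sense reads with 48.03% at its highest position.

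**Figure D4:**
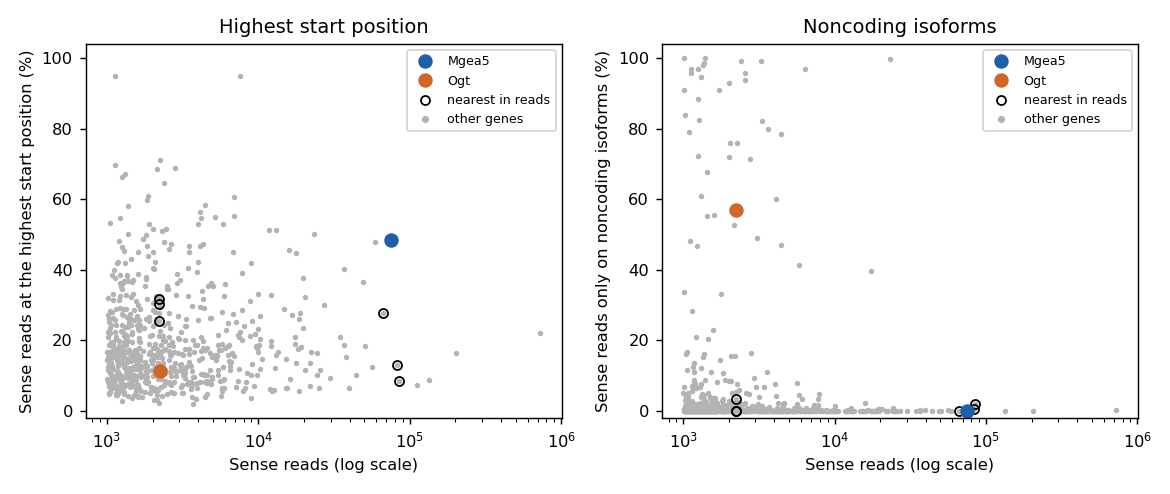
For nuclear genes with at least 1000 sense reads, the percentage of sense reads at the highest start position (left, 688 genes) and on noncoding isoforms alone (right, 657 coding genes) against sense reads (log scale). Mgea5 lies at 48.4% and 0.001336%, Ogt at 11.3% and 57.1%, and open circles are the 3 genes nearest to each in reads.

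The genes that supply and use the sugar donor had far lower RPKM than Mgea5, whose value rests on exons 7 to 9 with 99.83% of its reads. Elsewhere Mgea5 had 124 sense reads, and its other 13 exons span 3999 bases. The RPKM of Mgea5 is therefore not a level of its whole mRNA. Of the 17 genes of the hexosamine and O-GlcNAc list 12 had at least 50 sense reads (70.6%), among them 10 of the 15 other than Mgea5 and Ogt, against 6390 of 22015 nuclear coding genes (29%). The median of the 15 was 0.565 RPKM, and that of all nuclear genes with a sense read was 0.171. At the head of the pathway, Hk2 and Hk1, which phosphorylate glucose, had 2.50 and 0.565 RPKM, and Gpi1, which makes fructose 6-phosphate, had 4.76 RPKM from 969 reads (908.9 to 1032.0). Gfpt1, which commits fructose 6-phosphate to the pathway, had 569 sense reads (523.2 to 617.7), whereas its relative Gfpt2 had 11.

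Further along, Gnpnat1, which acetylates glucosamine 6-phosphate, had 11 sense reads (5.49 to 19.7), Pgm3, which moves the phosphate, had 84, and Uap1, which makes UDP-GlcNAc, had 98 (79.6 to 119.4). Its relative Uap1l1 had 10. Of the genes that recycle or degrade amino sugars, Gnpda2 had 92, Renbp 79, Amdhd2 64, Nagk 39 and Gnpda1 29. Of these reads 88, 2, 31, 18 and 20, in that order, matched noncoding isoforms alone. Eogt, which adds the same sugar to secreted and membrane proteins in the endoplasmic reticulum, had 149 sense reads and 0.964 RPKM. By RPKM of reads given to 1 gene, Mgea5 and then Ogt headed the list. The Ogt value includes the reads of intron 4, 56.9% of its sense reads. With reads that also match other genes included, Gpi1 had 6118 reads and passed Ogt, which stayed at 2225.

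All 11 listed genes of known OGT partners or targets had at least 50 sense reads, against 29% of nuclear coding genes, with a median of 0.8555 RPKM. Ezh2, which encodes the target of the anti-Ezh2 antibody and an OGT substrate, had 12795 sense reads and 60.8 RPKM. Tet1 had 4002 reads and 8.21 RPKM, and Hcfc1, the HCF-1 gene, had 1638 reads (1559.6 to 1719.3) and 6.21 RPKM. Tet1 and Ogt lay close in RPKM, at 8.21 and 8.77. Intron 4 held 56.9% of the Ogt reads, so the RPKM of Ogt is not a level of its coding mRNA. Of the Tet1 reads 52.9% lay at 1 position, a larger share than in Mgea5. Sin3a, a corepressor subunit, had 341 reads, Trak1 and Trak2, mitochondrial transport adaptors, had 339 and 131, and Tet2 and Tet3 had 497 and 70. Bap1, Asxl1 and Kdm1b, chromatin regulators, had 68, 164 and 97. Antisense shares were 55.3% in Asxl1, 46.4% in Tet2, 45.7% in Tet3, 42.1% in Sin3a and 31.05% in Trak2, against 13.7% over nuclear genes. In Tet1, Kdm1b, Trak1, Ezh2, Bap1 and Hcfc1 they lay between 6.45% and 13.75%.

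**Figure D5:**
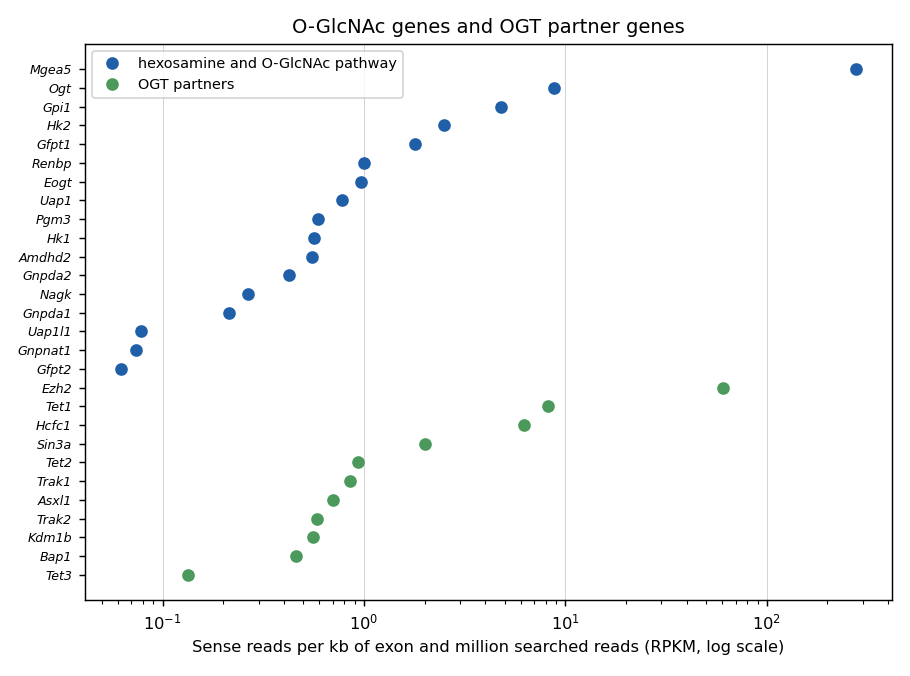
Sense reads per kb of merged exon, scaled to searched reads (RPKM, log scale) for the 17 genes of the hexosamine and O-GlcNAc list (blue) and the 11 OGT partner genes (green). Mgea5 is at 276, Ogt at 8.77, and the other pathway genes lie between 0.0624 and 4.76. The Mgea5 value rests on exons 7 to 9, which hold 99.83% of its sense reads. The Ogt value includes intron 4, which holds 56.9% of its sense reads.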

How the data were processed

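RNA from the RIP of embryonic stem cells was read by sequencing. The deposited table lists each distinct read sequence with its read count, without a header. The name of the deposited table has parts that may stand for unique sequences and for removal of ribosomal and homopolymer reads. How this was done, and the aligner, are not given in the sources used here. The build in the submitters' processing notes is mm9. The deposited table carries no positions, and all coordinates here are of GRCm38, the build of GENCODE M21. Its count column was treated as 1 pool, with no test between groups, because its library is stated nowhere in the headers or labels.

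The leading 6 bases were dropped and remainders of at least 20 bases were matched to GENCODE M21 transcripts with bwa 0.7.19, with up to 2 mismatches, no gaps and up to 1000 placements. Sense reads of a gene are those whose best placements in RNA sense hit no other gene. Further antisense hits were tolerated where that other gene lies across from it on the opposite strand. Antisense reads have antisense hits to 1 gene and no sense hit. The steps were tested on simulated reads. Start positions were merged over isoforms by genome position. A read was counted on noncoding isoforms alone when no isoform it matched was coding or marked for nonsense-mediated decay. RPKM was computed from the deposited counts. Percentages have exact Clopper-Pearson 95% intervals and counts Poisson 95% intervals (scipy 1.17.1). Nuclear genes leave out mitochondrial genes and the 18S-like genes Gm42418 and CT010467.1. The members and lists were chosen with earlier results of these data known. The named genes are Mgea5, Ogt, the listed genes (those under 50 reads were named too), the neighbours, and the 3 nuclear genes nearest to each member in log2 sense reads. Alternatives changed what is counted, mismatches, read length, the bases dropped and the placements used.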

Additional observations from a re-analysis of the deposited data

How the results depend on the processing

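The results rest on 1 pooled table without replicates, so that leaving out a replicate was not possible, and no genome was at hand for the whole gene span with introns, which was not run. No paired analysis was possible because no value belongs to a library. Of 66 values under other settings, 28 stayed within the counting interval of the reported value and 38 did not. The cause of these moves was not tested, except that counting fewer reads lowers a count by construction.

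Counting each distinct sequence once gave 5393 for Mgea5 and 484 for Ogt, antisense shares of 0.388% and 9.53%, shares at the highest position of 24.0% and 14.9%, and shares on noncoding isoforms alone of 0.0185% and 41.9%. Counting each start position once gave 318 and 160, antisense shares of 4.79% and 17.1%, and noncoding shares of 0.3145% and 44.4%. With no mismatch there were 70853 and 2048 sense reads, an antisense share of 0.0254% in Mgea5, 48.9% at its highest position and 0% on noncoding isoforms alone. With 0 leading bases dropped there were 61115 and 2076 sense reads, and Mgea5 had an antisense share of 0.0229% and 50.6% at its highest position. With 10 dropped, the antisense share of Mgea5 was 0.232%. In 36-base reads alone there were 3146 and 165 sense reads, antisense shares of 0.285% and 9.34%, highest-position shares of 51.4% and 30.3%, and noncoding shares of 0% and 35.2%. In 40-base reads alone there were 71467 and 2024 sense reads and 59.5% of Ogt reads on noncoding isoforms alone. The highest position of Ogt moved to the 3′ UTR by distinct sequences and in 36-base reads. All placements gave Mgea5 93686 reads. Within 5 bases of the highest position lay 72.5% of Mgea5 and 20.8% of Ogt reads.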

Other observations

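A further 18817 reads matched Mgea5 and other genes equally well and were left out of its count. Of these 18812 lay in the part of intron 12 that a retained intron isoform keeps, and a read sequence there matched up to 757 genes. In that part 667 of 825 windows of 34 bases match Mgea5 alone, and 0 reads given to Mgea5 alone started in it. Ogt had 0 reads of this kind.

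Among the neighbours of both genes, Gm15491, an antisense gene of 45749508 to 45752310 on the plus strand of chromosome 19 that overlaps the last exon of Mgea5, had 0 reads on either strand, where a count of 0 allows up to 3. Npm3, a histone chaperone gene downstream of Mgea5, had 167 sense reads at 43 positions and 4.46 RPKM, and Kcnip2, upstream of Mgea5, had 1 sense and 6 antisense reads. Near Ogt, Taf1, a subunit gene of the general transcription factor TFIID, had 728 sense reads at 103 positions and 2.70 RPKM, and Cxcr3, a chemokine receptor gene, had 0 sense and 14 antisense reads.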
